A study of Drosophila melanogaster with 9 samples.

Results

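The comparison set the central nervous system (CNS) of 1st instar Drosophila melanogaster larvae that lack elav against that of Canton-S larvae, a common wild-type strain. It asks which genes and functions differ when elav alone is lost and which do not. The elav5 larvae were homozygous for elav5, a deletion allele of elav, and kept their copies of fne, whereas larvae called elav5/fne carried deletions of both genes. Each of these genotypes had 3 libraries, all flies were kept at 25 °C, and CNS were dissected from larvae picked as viable homozygotes by a visible marker. Values are reads from the 3' ends of transcripts, counted per gene and given as normalised CPM, a scale on which the 9 libraries of the series average 1e6 in total. Of 17421 genes in the table, 9189 had a mean deposited value of at least 16 over the 6 elav5 and Canton-S libraries, which is 0.946 normalised CPM, and these are the genes described. CG42749 lay just inside that limit at 0.948 normalised CPM and Ogg1 just outside it at 0.946. No source used here says that both strains have the same background, so strain differences and the loss of elav cannot be told apart. The labels also do not say whether libraries came from separate groups of larvae, so p-values measure only the sample-to-sample spread, which may be technical.

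ELAV/Hu proteins are RNA-binding proteins found mainly in neurons, where they bind U-rich stretches of transcripts. In flies ELAV directs neural splicing and favours distal over proximal 3' ends, which gives many brain transcripts their long 3' untranslated regions. FNE is a closely related protein with overlapping targets, and Rbp9 is the remaining family member. The table used here holds 1 value per gene, the 3' end reads assigned to it, so it does not show which 3' end was used. How reads at extended 3' ends were assigned is not given, so a change of value may not be a change in the amount of transcript.

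The libraries had 15653458 to 18810352 reads in genes per library, and 3 reads, the smallest level read as detected, were worth 0.150 to 0.196 normalised CPM. That level covers counting error only. The 9 neuronal markers matched in the table were all detected, with sums of 13310, 15150 and 14290 normalised CPM in elav5 replicates 1, 2 and 3 and 14470, 15250 and 15800 in Canton-S replicates 1, 2 and 3. In the limma test given below 2 of these 9 markers were lower in elav5 and none was higher. With 1 library left out 0 to 2 were lower. Markers of neighbouring tissue differed between the elav5 libraries. The 13 muscle markers summed to 6852, 1954 and 585 normalised CPM in the elav5 replicates against 669 to 846 in Canton-S, and the 8 gut markers, with betaTry at 0 in both genotypes, to 866, 17.2 and 45.0 in elav5 against 17.2 to 91.5 in Canton-S. elav5 replicate 1 therefore stood apart, and Canton-S replicate 2 held the fat body genes Lsp1beta and Fbp2 at 112 and 68.2 normalised CPM, where no other of the 6 libraries passed 1.74. In such bulk samples fewer cells of a type and less RNA per cell cannot be told apart.

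**Figure D1:**
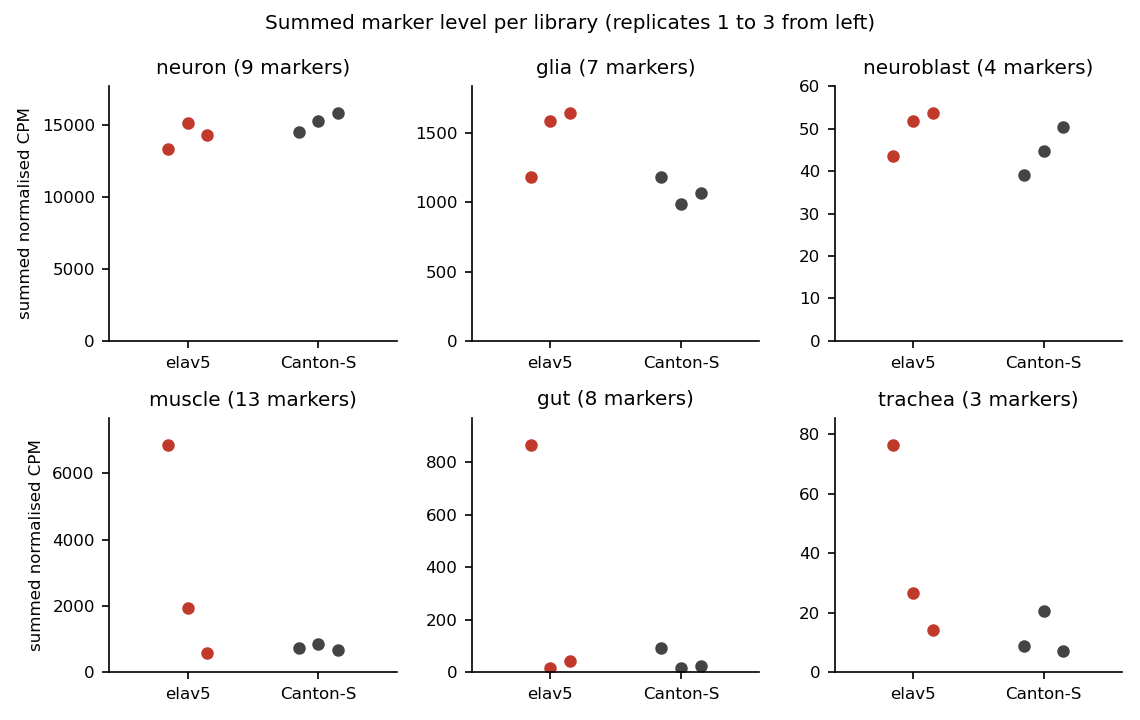
Summed level of marker genes (normalised CPM) in each library, with elav5 libraries on the left and Canton-S libraries on the right of each panel. Neuronal sums overlap between genotypes, whereas the muscle sum of elav5 replicate 1, at 6852, lies above that of all other libraries shown.

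elav (chromosome X, 509235 to 523226, dm6) had 33.1, 39.4 and 21.1 normalised CPM in the 3 elav5 libraries, against 1582, 1630.1 and 1717 in the 3 Canton-S libraries. These averaged 31.2 ± 9.26 in elav5 and 1643 ± 68.3 in Canton-S (SD, n = 3 each). Every elav5 library lay far under every Canton-S library, and the elav5 mean was 1.90% of the Canton-S mean (log2 change -5.72, SE 0.31, limma with Benjamini-Hochberg adjustment, adjusted p = 1.48e-05). An exact 2-sided permutation test over the 6 libraries gave p = 0.1, the smallest value that 3 against 3 libraries allow. elav shares bases with lncRNA:enrr on its own strand and with arg on the other, so the source of the reads left in elav5 is uncertain. fne (chromosome X, 12917477 to 12950417) had 4545, 4595 and 4947 normalised CPM in elav5, against 4422, 5452 and 5248 in Canton-S. The fne ranges overlapped, and the 95% interval of its log2 change, -0.55 to 0.35, lay within 1.5-fold in either direction. Rbp9 was near the low end of the range, with 7.78, 4.31 and 4.58 normalised CPM in elav5 against 1.9, 3.52 and 2.58 in Canton-S; it did not pass the test (log2 0.82, adjusted p = 0.125), although its ranges did not overlap.

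With limma and Benjamini-Hochberg adjustment, 1458 of the 9189 genes passed an adjusted p under 0.05, which is 15.9% of them. Of these, 784 were higher in elav5 (8.53%) and 674 were lower (7.33%), and 346 and 206 changed by over 2-fold. The libraries of both genotypes did not overlap for 3316 genes (36.1%). The count of called genes was 1061 without elav5 replicate 1. Leaving out Canton-S replicate 1 gave 725, leaving out Canton-S replicate 2 gave 757, and 611 genes (358 higher, 253 lower) passed in each of the 6 fits that left out 1 library. Dh31 (with Bace), VAChT (ChAT), eRF1 (CG5618), pit (Fadd) and mbl (CG43272) share bases with another gene on their strand, and CG4293 (arg), sn (sws), Ddc (CG10561) and Fer1HCH (Fer2LCH) with one on the other, so the source of their reads is uncertain. Genes named below as called belong to those 611 unless their own result without a library is given beside them. None of the 16 muscle, 11 gut or 8 fat body genes tested was called with all libraries, but 8 of the muscle genes were higher in elav5 without elav5 replicate 3. Of the salivary gland genes Sgs7 alone passed the filter, with 6.56, 2.48 and 3.27 normalised CPM in elav5 against 0.150, 1.26 and 0.899 in Canton-S; it was called (log2 1.5, adjusted p = 0.0366), and its adjusted p was 0.0401 to 0.125 with 1 library left out. A gene is called held below when the 95% interval of its log2 change lay within 1.5-fold of no change, which was so for 2630 genes (28.6%), 23 of them also called. Scaling each library to its total moved the median log2 change of all genes to -0.13, in place of 0.01, and gave 567 higher and 1209 lower genes.

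**Figure D2:**
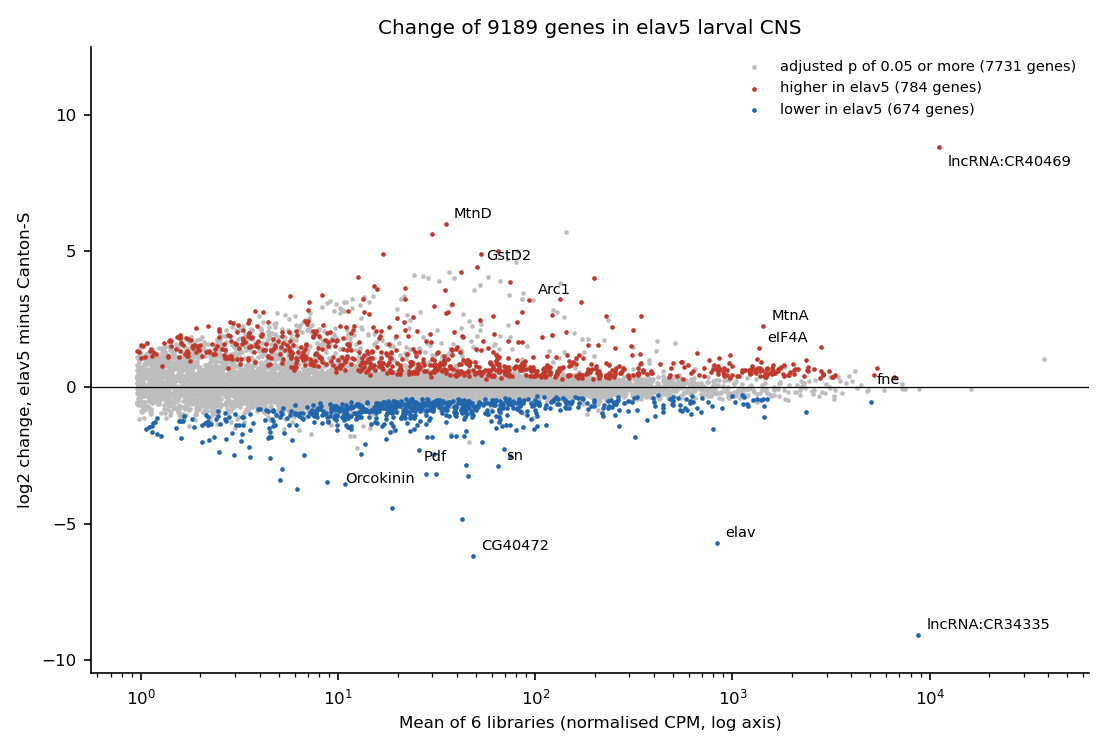
Log2 change (elav5 minus Canton-S) of 9189 genes against their mean over the 6 libraries in normalised CPM, on a log axis. Genes past an adjusted p of 0.05 are red where higher in elav5 (784) and blue where lower (674), and elav, lncRNA:CR34335 and CG40472 lie at the bottom.

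Genes beside elav were called about as often as all genes, of which 15.9% were called. Of 20 tested genes that start within 100 kb of the elav start, 3 were called, namely elav itself, CG4293 and CR18275, the last of which did not pass in every fit that left out 1 library. CG4293 starts 7.07 kb from elav and had 4.18, 4.5 and 3.93 normalised CPM in elav5 against 11.8, 8.15 and 9.35 in Canton-S (log2 -1.04, adjusted p = 0.00764). Appl, the fly homologue of the amyloid precursor protein and a neuronal marker, starts 7.28 kb from elav and was held within 1.5-fold, with 2508, 2838 and 2594 in elav5 and 2040.4, 2374 and 2363 in Canton-S. Within 1000 kb of elav, 15 of 106 tested genes were called, a share just under the 15.9% of all genes. Among them was lncRNA:CR40469, described below. The share of genes called was similar on every large chromosome arm, from 15.1% on X to 16.1% on 2R, was 12.8% on chromosome 4, and was 40.0% among 30 mitochondrial genes.

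**Figure D3:**
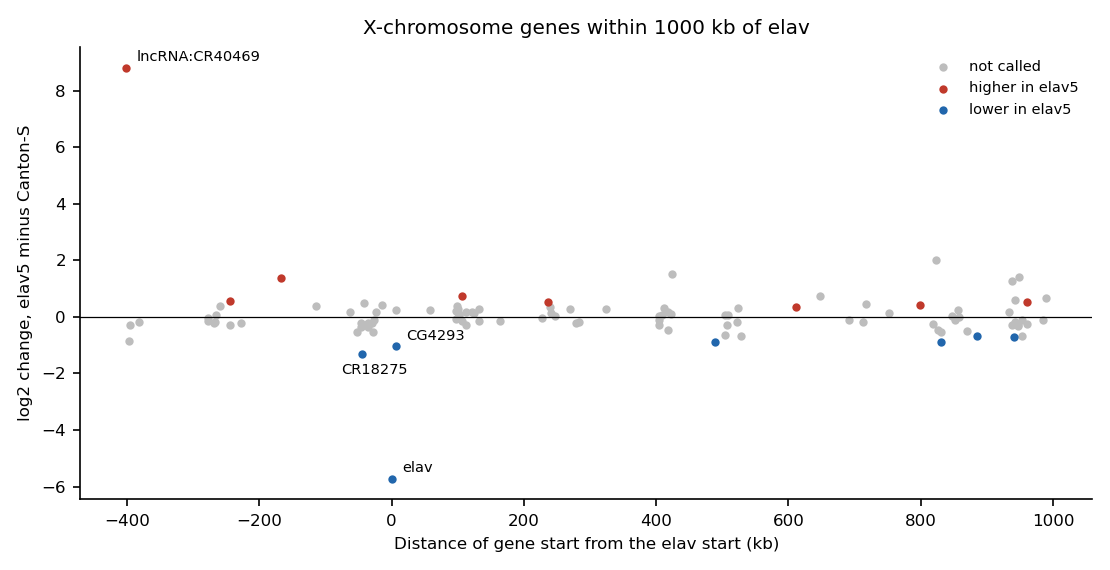
Log2 change (elav5 minus Canton-S) of tested X-chromosome genes within 1000 kb of elav, by distance of their start from that of elav, in kb. Near 0 kb elav, at -5.72, is the lowest point, lncRNA:CR40469, at 8.81, is the highest, and most neighbours lie close to 0.

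The genes with the largest falls had varied roles. Rab18, a small GTPase of membrane traffic and lipid droplets, had 5.21, 4.37 and 4.84 normalised CPM in elav5 against 54.9, 47.7 and 50.4 in Canton-S (log2 -3.16, SE 0.18, adjusted p = 1.8e-05). Cln3, which encodes a lysosomal membrane protein, had 1.29, 0.261 and 1.18 in elav5 against 21.9, 21.9 and 18.6 in Canton-S (log2 -3.56). In both genes each elav5 library lay under each Canton-S library by a wide margin. Pcyt2, an enzyme of phosphatidylethanolamine synthesis, had 3.41, 3.13 and 3.34 normalised CPM in elav5 against 26.3, 23.6 and 18.6 in Canton-S (log2 -2.46, adjusted p = 9.86e-05). Vha36-3, a subunit gene of the vacuolar proton pump, had 23.4, 28.4 and 14 in elav5 against 148, 109 and 124 in Canton-S (log2 -2.53). Of 20 proton pump genes tested 1 rose, 2 fell and 8 were held, a share called just under the 15.9% of all genes, with a median log2 change of 0.15. With 1 library left out 1 to 3 rose and 1 to 4 fell, the most rises without elav5 replicate 2 and the most falls without elav5 replicate 3. The gene that rose was VhaSFD, at 241, 197 and 210.1 in elav5 against 144, 151 and 157 in Canton-S (log2 0.51). Vha100-4, named after its values were seen, had the highest log2 change of the list, 2.31, but did not pass the test (adjusted p = 0.276), with 31.7, 4.05 and 0.196 in elav5 against 0 to 0.479 in Canton-S, so elav5 replicate 1 held most of its reads. MsrA, which repairs oxidised methionine, fell by 2.44 on the log2 scale, and santa-maria, a scavenger receptor of carotenoid uptake, by 2.30. Of 28 Rab genes tested 2 rose, 2 fell and 15 were held, which is 14.3% called, and of the calls those of Rab18 and Rab7 passed in every fit. Rab7, the late endosome GTPase, rose, at 79.4, 61 and 94.3 normalised CPM in elav5 against 40.7, 35.8 and 43.7 in Canton-S. Pcyt2 overlaps Pcyt1 on the same strand, and since the strand setting of the counting is not given its reads cannot be told apart from those of its neighbour.

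Some of the large falls stood beside higher values in larvae that lack fne as well. CG40472, an uncharacterised gene, had 0.0643, 0.718 and 0.262 normalised CPM in elav5, 44.2, 47.8 and 53.5 in elav5/fne and 104.3, 95.5 and 88.8 in Canton-S. Prosbeta6, a subunit of the proteasome core, had 5.92, 6.92 and 11.5 in elav5, 69.9, 62.8 and 71.5 in elav5/fne and 91.2, 88.7 and 70.4 in Canton-S. sn, which encodes the actin-bundling protein fascin, had 14.7, 15.8 and 13.1 in elav5, 189, 181 and 160.5 in elav5/fne and 112, 124 and 107 in Canton-S. In these 3 genes the elav5 libraries stood lowest, and in sn the elav5/fne libraries stood above Canton-S. The log2 changes of elav5 against Canton-S were -6.20 (SE 0.19), -3.25 (SE 0.21) and -2.89 (SE 0.11), with limma adjusted p = 3.47e-07, 4.77e-05 and 9.91e-07. Both mutants were set against the same Canton-S libraries, and in each of them elav was low.

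Several neuropeptide precursor genes were lower, and none was called higher. Of 35 tested precursors 11 fell, none rose and 8 were held within 1.5-fold, which is 31.4% called against 15.9% of all genes. Their median log2 change was -0.42, against 0.01 for all genes. The count of falls was 7 without any 1 of the Canton-S libraries and 8 without elav5 replicate 1, and 6 genes passed throughout. Pdf (chromosome 3R, 26455462 to 26456141), which encodes the pigment-dispersing factor of the circadian clock neurons, had 10.7, 11.7 and 7.73 normalised CPM in elav5 against 81.9, 77.7 and 76.3 in Canton-S. Orcokinin, another neuropeptide gene, had 5.66, 6.46 and 4.26 in elav5 against 57.4, 59.1 and 55.8 in Canton-S. No elav5 library of either gene came near the Canton-S range, with log2 changes of -2.87 (SE 0.28, adjusted p = 0.000381) and -3.19 (SE 0.25, adjusted p = 9.66e-05). Eh, the eclosion hormone that triggers moulting behaviour, had 17.2, 14.4 and 26.6 normalised CPM in elav5 against 76.1, 53.5 and 72.5 in Canton-S (log2 -1.77). ITP, the ion transport peptide of water balance, had 98.5, 93.1 and 96.4 in elav5 against 158, 170.0 and 183 in Canton-S (log2 -0.82). In elav5/fne Pdf had 0.185, 1.35 and 0.127 and Eh had 0.124, 0.968 and 0.698 normalised CPM. Dh31 and sNPF were held, and Dh31 had 134, 147 and 170.0 in elav5 against 153, 166 and 164 in Canton-S. Of 8 enzymes that process precursors 6 were held, while amon, the prohormone convertase, was higher at 244, 243 and 239.7 normalised CPM in elav5 against 171, 171 and 189 in Canton-S (log2 0.45, adjusted p = 0.00971).

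**Figure D4:**
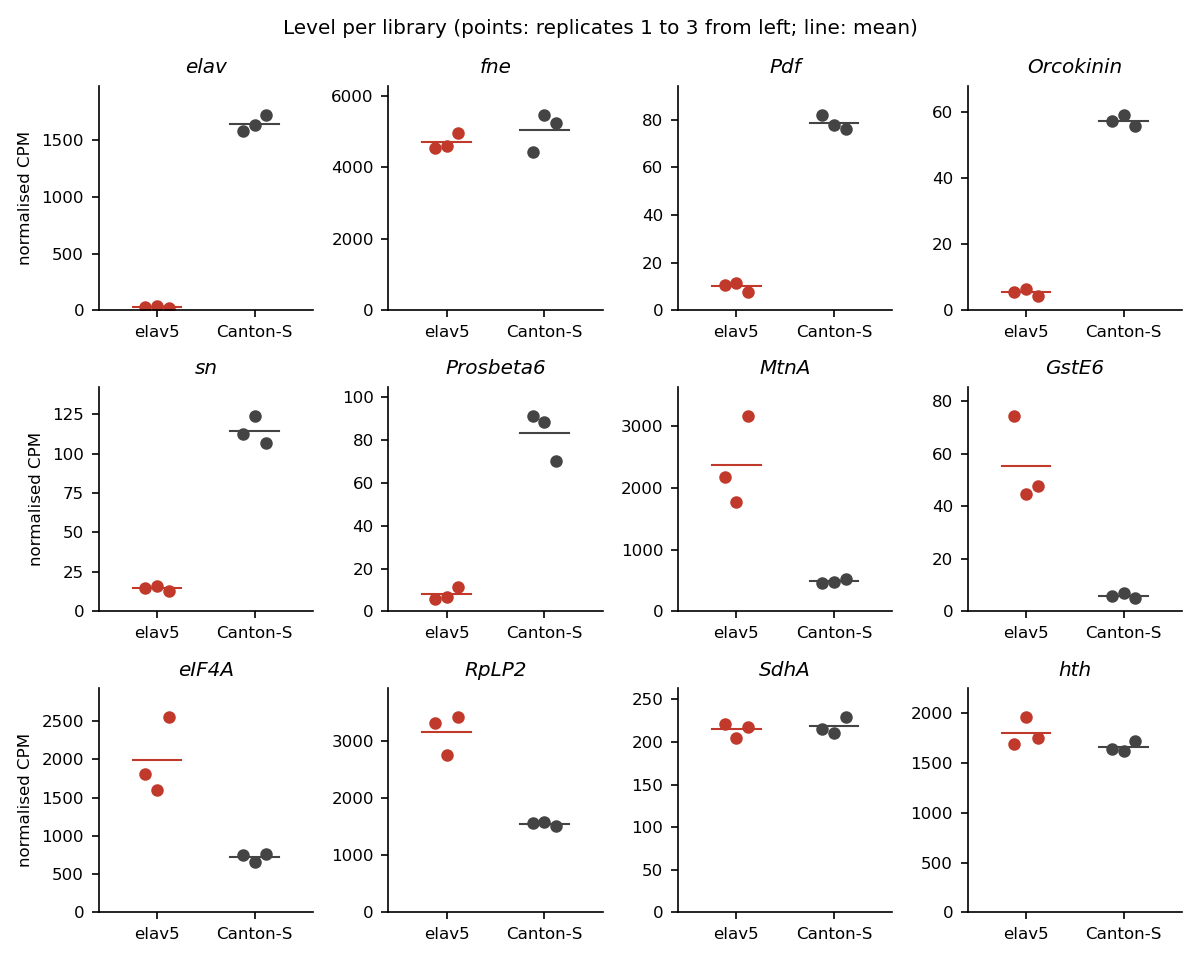
Normalised CPM of 12 genes in each library, with elav5 on the left and Canton-S on the right of each panel and a line at the mean of 3 libraries. elav, Pdf, Orcokinin, sn and Prosbeta6 are lower in elav5, MtnA, GstE6, eIF4A and RpLP2 are higher, and fne, SdhA and hth overlap.

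Some genes of synaptic vesicle release were lower, and none was called higher. Of 19 tested genes of vesicle release and recycling 5 fell, none rose and 10 were held, which is 26.3% called against 15.9% of all genes, with 2 falls left on omitting Canton-S replicate 1 and 3 on omitting elav5 replicate 1 or Canton-S replicate 2 or 3. Rop, the Sec1/Munc18 protein that primes vesicle fusion, had 126, 148 and 159.7 normalised CPM in elav5 against 321, 268 and 303 in Canton-S (log2 -1.03, SE 0.13, adjusted p = 0.00176). Syx1A, the syntaxin of the fusion complex, had 1117, 1222 and 1176 in elav5 against 1595, 1527 and 1707 in Canton-S (log2 -0.46), each elav5 library lying under each Canton-S library in both genes. Syt1, the calcium sensor, and Syn, synapsin, were held, with Syt1 at 1138, 1297 and 1176 in elav5 and 1363, 1338 and 1393 in Canton-S. Syx1A overlaps eIF4EHP on the same strand, a gene that was itself lower.

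Among 18 genes of transmitter synthesis and transport 3 fell, 2 rose and 7 were held, which is 27.8% called, with 1 rise left without elav5 replicate 3 or without any 1 of the Canton-S libraries. Those that fell in every fit were Ddc, dopa decarboxylase of dopamine and serotonin synthesis, Vmat, the vesicular monoamine transporter, and ChT, the choline transporter. Ddc had 65.9, 67.3 and 63.4 normalised CPM in elav5 against 146, 121 and 146 in Canton-S (log2 -1.05), and Vmat 638, 695 and 639 in elav5 against 1126, 1089.6 and 1105 in Canton-S (log2 -0.75). Tbh, which makes octopamine, was higher at 106, 121 and 120.1 in elav5 against 67, 70.6 and 80.0 in Canton-S (log2 0.67, adjusted p = 0.00571). VAChT, the vesicular acetylcholine transporter, was held with 319.6, 322 and 329 in elav5 against 307, 314 and 339.9 in Canton-S. In elav5/fne Vmat had 98.2, 114 and 72.4 normalised CPM. Of 10 nicotinic acetylcholine receptor subunits nAChRalpha7 alone was called, at 398, 429.7 and 351 in elav5 against 669.6, 724 and 744 in Canton-S (log2 -0.86, adjusted p = 0.00166), and 6 were held. Of 22 voltage-gated and potassium channel genes 4 fell and 7 were held, which is 18.2% called, with 1 fall left without Canton-S replicate 2 or 3 and 2 without Canton-S replicate 1. eag, a potassium channel, had 385, 480.4 and 304 in elav5 against 649, 676 and 738 in Canton-S (log2 -0.84).

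Other neuronal RNA-binding proteins changed by less than 2-fold. Of 15 tested 4 fell, 1 rose and 8 were held, which is 33.3% called against 15.9% of all genes. mbl, the splicing regulator muscleblind, was higher, with 2332, 2765 and 2764 normalised CPM in elav5 against 1376, 1451 and 1475 in Canton-S (log2 0.87, SE 0.11, adjusted p = 0.00171). mei-P26, a TRIM-NHL protein, had 1812, 1736 and 1365 in elav5 against 2640.5, 3129 and 3494 in Canton-S (log2 -0.92), and shep, a neuronal RNA-binding protein, 4023, 4599 and 3771 in elav5 against 5635, 5876 and 6218 in Canton-S (log2 -0.52). Hrb27C, an hnRNP, fell by 0.44 on the log2 scale, while the splicing factor ps and the poly(C)-binding protein mub were held. mei-P26, shep and Hrb27C also belong to the list of 14 genes with extended neural 3' ends or ELAV splicing, of which 3 fell, 1 rose and 8 were held. That is 28.6% called. Nrg, a neural adhesion molecule, was held, with 912, 964 and 775 in elav5 and 969, 966 and 1032 in Canton-S. The gene that rose was ewg, a transcription factor whose splicing ELAV controls, with 140.4, 182 and 139 in elav5, 746, 686 and 633 in elav5/fne and 119, 91.4 and 102 in Canton-S (log2 0.55 for elav5, adjusted p = 0.0247), and its adjusted p was 0.0599 on omitting elav5 replicate 2, 0.092 on omitting Canton-S replicate 2 and 0.0691 on omitting Canton-S replicate 3. For such genes a change of 3' end cannot be read from 1 value per gene. Of 16 cleavage and polyadenylation factors 3 fell, 1 rose and 6 were held, which is 25.0% called. But in every fit that left out a library only Rat1, the nuclear exonuclease of transcription termination, kept its call. It had 14, 13.2 and 13.6 normalised CPM in elav5 against 22.9, 24 and 21.1 in Canton-S (log2 -0.70, limma adjusted p = 0.0102).

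Nearly all cytosolic ribosomal protein genes were higher. Of 81 tested 73 rose and none fell, which is 90.1% called against 15.9% of all genes. Their median log2 change was 0.60. With 1 library left out 58 to 75 rose, and on the library total scale 60 rose. RpLP2, a protein of the ribosomal stalk, had 3307, 2758 and 3413 normalised CPM in elav5 against 1567, 1583 and 1503 in Canton-S (log2 1.02, SE 0.10, adjusted p = 0.000292). RpL34b, RpS14b and RpL24-like had log2 changes of 0.92, 0.89 and 0.73. RpS14b has a near-identical neighbour and RpL34b a close copy, so their reads may be shared with those genes. Each elav5 library of RpLP2 lay above every Canton-S library, elav5 replicate 2 being the lowest of the 3. RpL22 was held, with 1381, 1074 and 1063 in elav5 against 1078, 1127 and 986 in Canton-S.

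Translation factors moved in both directions. Of 45 tested, 12 rose, 3 fell and 23 were held, which is 33.3% called against 15.9% of all genes. The list median of 0.12 turned to -0.03 on the library total scale. eIF4A, the RNA helicase of initiation, had 1811, 1606 and 2551 normalised CPM in elav5 against 746, 659 and 769 in Canton-S (log2 1.43, SE 0.16, adjusted p = 0.000745). The eIF3 subunits eIF3l and eIF3e had log2 changes of 0.86 and 0.72, and the release factor eRF1 of 0.74. eIF4G1, the scaffold that holds eIF4A, was held with 527, 551 and 539 in elav5 against 606, 610.0 and 595 in Canton-S, each value lying just under the Canton-S range. Of 32 aminoacyl-tRNA synthetases none rose and 8 fell, which is 25.0% called, though 3 fell without Canton-S replicate 1 or 2 and 5 without elav5 replicate 1. LeuRS, which charges leucine tRNA, had 20.7, 17.8 and 15.9 normalised CPM in elav5 against 38.2, 41 and 33.1 in Canton-S (log2 -1.01, adjusted p = 0.00352).

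Many factors that assemble ribosomes in the nucleolus fell. This list of 30 genes was put together after their values were seen, so its counts describe and support nothing: 21 fell, 1 rose and 4 were held, with a median of -0.76 and 11 falls left without Canton-S replicate 1 or 2. With all libraries 73.3% were called, against 15.9% of all genes. pit, an RNA helicase of the nucleolus, had 30.2, 30.6 and 33.1 normalised CPM in elav5 against 71.3, 70.1 and 53.1 in Canton-S (log2 -1.02, adjusted p = 0.00192). Nmd3, the export adaptor of the large ribosomal subunit, had 28.2, 30.6 and 27.4 in elav5 against 53, 47.2 and 47.1 in Canton-S (log2 -0.75). The exception was LTV1, a factor of small subunit maturation, which rose, at 198, 200.3 and 227 in elav5 against 115.1, 95.7 and 131 in Canton-S (log2 0.88). RNA polymerase subunits, a list made in the same way, had 8 falls and no rise among 28, which is 28.6% called. There were 4 falls left without Canton-S replicate 1 or 2 and 5 without elav5 replicate 2. In this list Polr1C, a subunit of polymerases I and III, had 13.6, 15.3 and 15.1 normalised CPM in elav5 against 34.9, 35.6 and 30.1 in Canton-S (log2 -1.14). Polr1A, the largest subunit of polymerase I, had 38.1, 31 and 31.3 in elav5 against 65.1, 69.1 and 52.2 in Canton-S (log2 -0.87).

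Of 31 proteasome subunits, Prosbeta6 included, 18 were held, 7 fell and none rose, which is 22.6% called against 15.9% of all genes. There were 3 falls on omitting Canton-S replicate 2 and 4 on omitting Canton-S replicate 1 or elav5 replicate 1 or 2. Rpn2, of the regulatory particle, had 39.5, 38.6 and 30.1 normalised CPM in elav5 against 67.3, 65.8 and 59 in Canton-S (log2 -0.82, adjusted p = 0.00547). Each elav5 library of Rpn2 lay under every Canton-S library. Rpt2, an ATPase of the base, was held with 66.5, 74.2 and 81.6 in elav5 against 78.3, 84.6 and 77.5 in Canton-S.

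Nuclear genes of the respiratory chain had the largest share of held genes among the lists. Of 68 tested 57 were held, 3 rose and 2 fell, which is 7.35% called. None was called without elav5 replicate 1 or without Canton-S replicate 2. SdhA, of succinate dehydrogenase, had 221, 205 and 218 normalised CPM in elav5 against 215, 210.2 and 229 in Canton-S. Mitochondrial ribosomal proteins had 9 falls, 3 rises and 23 held genes among 70, which is 17.1% called, close to the 15.9% of all genes. Their falls numbered 2 without Canton-S replicate 1 or 2, 3 without elav5 replicate 1 and 4 without elav5 replicate 2. Without elav5 replicate 1 or Canton-S replicate 3 they had 1 rise left. mRpS10, of the small subunit, had 6.5, 7.18 and 9.62 in elav5 against 18.1, 17.5 and 15.6 in Canton-S (log2 -1.06, adjusted p = 0.00666). Of 30 genes encoded by the mitochondrial genome 12 rose and none fell, which is 40.0% called. Their median was 0.78, with 8 rises without elav5 replicate 3 or Canton-S replicate 1 or 2. Of the 12 that rose 7 were tRNA genes, such as mt:tRNA:Ser-GCT at 421, 295 and 500.2 in elav5 against 78.7, 82.6 and 92.7 in Canton-S (log2 2.22). mt:CoII and mt:ATPase6, of the respiratory chain, were held. Mitochondrial genes lie end to end and are read as long transcripts, so reads of a tRNA gene and of its neighbour may not be told apart. Of 14 glycolysis genes 2 fell and 8 were held, which is 14.3% called. There were 5 falls without elav5 replicate 3 and 1 without elav5 replicate 1 or Canton-S replicate 1 or 2. Hex-A, hexokinase, had 1153, 1119.9 and 1053 in elav5 against 1754, 1654 and 1953 in Canton-S (log2 -0.69, adjusted p = 0.00192).

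Metallothioneins are small proteins that bind copper, zinc and cadmium. Of 5 metallothionein genes tested 4 rose and none fell, and MTF-1, their transcriptional regulator, did not pass the test (17.6, 8.75 and 9.23 normalised CPM in elav5 against 5.61, 9.11 and 10.1 in Canton-S). Of the list with MTF-1 66.7% were called, against 15.9% of all genes. MtnA had 2172, 1773 and 3163 normalised CPM in elav5 against 460.2, 481 and 518 in Canton-S (log2 2.24, SE 0.22, adjusted p = 0.000351). MtnB had 37.9, 49.4 and 91.6 in elav5 against 0, 0.503 and 0 in Canton-S, where 2 of the 3 libraries had no read. MtnD and MtnE rose too, MtnE to 223, 53 and 103.9 in elav5 against 2.35, 2.16 and 2.64 in Canton-S. In elav5/fne MtnB had 6.0, 5.76 and 31.1 normalised CPM and MtnE 5.25, 10.3 and 126, with the third replicate highest in both, while MtnA had 3072, 2398 and 1912. MtnF did not pass the test, with 75.1, 93.4 and 127 in elav5 against 103, 104.5 and 87.3 in Canton-S (log2 -0.02, adjusted p = 0.97), and it was at 2.84, 8.82 and 2.54 in elav5/fne. Fer1HCH and Fer2LCH, the ferritin subunits that store iron, belong to a list made after values were seen, and Fer1HCH had 844, 817 and 1127 in elav5 against 399.8, 348 and 414 in Canton-S (log2 1.25, adjusted p = 0.000676).

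Of 32 glutathione transferases 12 rose, none fell and 2 were held, which is 37.5% called against 15.9% of all genes. Their median was 1.22. On omitting elav5 replicate 1, which had the most muscle and gut transcript, 12 rose, and 8 rose without Canton-S replicate 1. Without elav5 replicate 1 the median was 0.47. GstE6 had 74.3, 44.6 and 47.7 normalised CPM in elav5 against 5.76, 6.99 and 5.15 in Canton-S (log2 2.99, SE 0.19, adjusted p = 4.77e-05). GstT3 had 14.9, 17.5 and 12.8 in elav5 against 1.5, 4.13 and 3.53 in Canton-S (log2 2.04), and GstD2 131, 117 and 46.1 in elav5 against 1.55, 2.77 and 6.53 in Canton-S (log2 4.43), with no overlap in any of the 3. GstE12 was held, with 194, 196 and 218 in elav5 against 167, 183 and 152 in Canton-S. Members of the family lie in clusters of close copies, so reads may be shared. Of 41 cytochrome P450 genes 8 rose, 4 fell and 4 were held, which is 29.3% called. With 1 library left out 3 to 7 rose and 0 to 3 fell, the fewest rises without Canton-S replicate 1, then 5 without Canton-S replicate 2 or 3, and no fall without Canton-S replicate 1 or 2. Cyp28d1 had 96.1, 82.4 and 118 in elav5 against 29.5, 18.4 and 25.7 in Canton-S (log2 1.98). Among 14 UDP-glycosyltransferases 2 rose and none fell, which is 14.3% called, just under the 15.9% of all genes. Their median log2 change was 0.80, and 0.22 without elav5 replicate 1. The largest change of that list was of Ugt35B1, at 5.79, 7.96 and 10.1 in elav5 against 0.401, 0.0503 and 0.419 in Canton-S (log2 2.78). With the muscle level of each library as a covariate 11 glutathione transferases rose and 1 fell; the part of gut or trachea was not tested.

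Rises among heat shock genes turned on single libraries, whereas the 2 falls passed in every fit that left out 1 library. Of 19 tested 3 rose and 2 fell, which is 26.3% called against 15.9% of all genes. With elav5 replicate 2 left out 5 rose, with Canton-S replicate 2 left out 2 rose, and none rose without elav5 replicate 1, elav5 replicate 3, Canton-S replicate 1 or Canton-S replicate 3. Hsp26, a small heat shock protein, had 907, 184 and 665 normalised CPM in elav5 against 22.9, 162 and 117 in Canton-S, so elav5 replicate 2 lay near the highest Canton-S library. Its log2 change was 2.64 (adjusted p = 0.0403), 1.79 without Canton-S replicate 1 (adjusted p = 0.109) and 3.33 without elav5 replicate 2, and the adjusted p was 0.101 without elav5 replicate 1, 0.0974 without elav5 replicate 3 and 0.0648 without Canton-S replicate 3. Hsp60A, the mitochondrial chaperonin, was lower in every fit, at 68.6, 51.2 and 56.7 in elav5 against 93.1, 121 and 91.4 in Canton-S (log2 -0.78, adjusted p = 0.00732). None of 9 genes of the ER stress response was called and 6 were held, though 2 rose without Canton-S replicate 3. Atf6 was held at 49.7, 54.8 and 48.7 in elav5 against 55.1, 49.1 and 68.9 in Canton-S.

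The share called was 23.5% of 17 glial genes, 9.52% of 21 cell cycle genes and 25.0% of 12 cell death genes, against 15.9% of all genes. nrv2, a sodium pump subunit of glia, rose, at 594, 852 and 848 normalised CPM in elav5 against 440.0, 402 and 423 in Canton-S (log2 0.84, adjusted p = 0.00547). hoe1, in the glial list, fell, at 42.9, 43.7 and 52.5 in elav5 against 131, 118 and 131 in Canton-S (log2 -1.44, adjusted p = 9.38e-05). Of 17 glial genes 1 rose, 3 fell and 2 were held, and repo, the transcription factor of glia, had 17.6, 26.1 and 19.7 in elav5 against 42.4, 37.3 and 34.9 in Canton-S (log2 -0.84, adjusted p = 0.0394). repo did not pass without elav5 replicate 1 or 3 or without any 1 of the Canton-S libraries (adjusted p 0.0754 to 0.131), and hoe1 was the only fall left in the list without any 1 of those 3. The 7 glial markers summed to 1182, 1586 and 1643 normalised CPM in elav5 against 1180, 991 and 1066 in Canton-S. Of these 7 markers 1 was called higher and 1 lower, and the median log2 change of the 17 glial genes was -0.21. The sums therefore do not show a rise of glial genes as a set. aPKC, the kinase of apical polarity in neuroblasts and other cells, had 54.5, 55.4 and 53.7 in elav5 against 163, 148 and 136 in Canton-S, the lowest p among 25 neuroblast genes (log2 -1.43, SE 0.10, adjusted p = 7.49e-05). Of those 25, 4 rose and 1 fell, also a larger share than over all genes, with no rise left on omitting Canton-S replicate 1 and 1 on omitting elav5 replicate 1 or 2 or Canton-S replicate 2 or 3. stg, the Cdc25 phosphatase that starts mitosis, rose, with 65.2, 58.3 and 60.5 in elav5 against 37.1, 29 and 24.3 in Canton-S (log2 1.02), and E2f1, a cell cycle transcription factor, fell by 0.54 on the log2 scale; a further cell cycle gene rose without elav5 replicate 1. Among 12 cell death genes 3 rose and none fell, with 1 rise without elav5 replicate 2 or 3 or Canton-S replicate 1 or 2. skl, a pro-apoptotic gene, was low in both genotypes, at 2.44, 5.88 and 4.39 in elav5 against 1.25, 0.805 and 0.719 in Canton-S (log2 1.40, adjusted p = 0.0127).

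Feedback genes of the EGF receptor pathway, a list put together after values were seen, had 6 rises and no fall among 17. Of the list 35.3% were called, against 15.9% of all genes. rho, the protease that releases the ligand, had 243, 263 and 315 normalised CPM in elav5 against 62.1, 115.0 and 108 in Canton-S (log2 1.56, SE 0.24). sty, the inhibitor sprouty, had 1054, 1006 and 1006 in elav5 against 516, 554 and 684 in Canton-S (log2 0.81), and edl, a regulator of Ets factors, 48, 64.1 and 52.4 in elav5 against 18.2, 18.3 and 24.7 in Canton-S (log2 1.39), with both genotypes apart in all 3 genes. rl, the kinase of the pathway, was held, with 35.6, 33 and 36.2 in elav5 against 28.2, 28.3 and 29.9 in Canton-S. Among 9 genes of the JNK and injury response 2 rose, 1 fell and 3 were held, which is 33.3% called. Only Mmp1, a secreted protease, kept its call in every fit, at 32.3, 22.8 and 15.8 in elav5 against 5.91, 10.9 and 6.53 in Canton-S (log2 1.48, adjusted p = 0.00959). The gene that fell was Mmp2 (log2 -0.43), which did not pass without elav5 replicate 1 or 3 or without any 1 of the Canton-S libraries.

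The ring gland, the endocrine organ attached to the brain, makes ecdysone, juvenile hormone and adipokinetic hormone. Of 7 genes tested in a list of its hormones and their supply 5 fell and none rose, which is 71.4% called against 15.9% of all genes. The falls were of spok, sad, Akh, Ptth and Npc1a, and 3 fell without Canton-S replicate 1 or 2. Ptth, which was low in both genotypes, encodes a hormone that brain neurons send to the gland, and Npc1a a sterol transporter used in many tissues, so the list is not of the gland alone. Ptth did not pass without elav5 replicate 1 or 2 or on omitting Canton-S replicate 1 or 2 (adjusted p 0.0534 to 0.0714), nor Npc1a on omitting Canton-S replicate 1 (adjusted p = 0.0553). spok, an enzyme of ecdysone synthesis, had 6.37, 4.64 and 3.21 normalised CPM in elav5 against 20.2, 21.9 and 25.7 in Canton-S (log2 -2.07, SE 0.22, adjusted p = 0.000646). Values in elav5/fne were 5.13, 4.57 and 5.26. Akh, the adipokinetic hormone, had 39, 41.2 and 25.3 in elav5 against 59, 93.3 and 100.2 in Canton-S (log2 -1.23), and it did not pass on omitting Canton-S replicate 2 (adjusted p = 0.0603) or 3 (adjusted p = 0.0517). Of 12 ecdysone response genes 2 fell and 5 were held, with 1 fall without Canton-S replicate 2 or 3. The share called was 16.7%, close to the 15.9% of all genes. Hr4, a nuclear receptor, had 15.6, 9.73 and 6.74 in elav5 against 25.5, 31.1 and 22.6 in Canton-S (log2 -1.29), while Eip75B was held. How much of the gland each dissection kept was not tested.

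The steepest differences of either direction were of long noncoding RNA genes. lncRNA:CR40469 (chromosome X, 122493 to 122706) had 19831, 19222 and 27793 normalised CPM in elav5, 23533, 21978 and 16435 in elav5/fne and 14.6, 195 and 37 in Canton-S, a log2 change of 8.81 for elav5 that became 7.99 on omitting Canton-S replicate 1 and 9.82 on omitting Canton-S replicate 2. lncRNA:CR34335 (chromosome X, 3545750 to 3546110) had 32, 27.9 and 32.1 in elav5, 48.3, 80.7 and 24.5 in elav5/fne and 19187, 14988 and 18391 in Canton-S (log2 -9.11). It lies inside DIP-alpha on the same strand, so its reads may include those of that gene. asRNA:CR45822 had no read in any of the 6 libraries of elav5 and elav5/fne, against 9.32, 13.7 and 14 normalised CPM in Canton-S. Of 255 long noncoding RNA genes 30 rose, 18 fell and 23 were held, with 17 rises left without Canton-S replicate 1. The share called was 18.8%, against 15.9% of all genes.

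The 2 noncoding RNAs of male X-chromosome dosage compensation were both higher. lncRNA:roX1 had 3669.5, 4082 and 4644 normalised CPM in elav5 against 1472, 1523 and 1469 in Canton-S (log2 1.47, SE 0.11, adjusted p = 8.45e-05). lncRNA:roX2 had 386, 323 and 661 in elav5 against 156, 182 and 124 in Canton-S (log2 1.51). Sxl, the switch gene of female development, which is also transcribed in males, had 499, 541 and 411 in elav5 against 833, 927 and 959.9 in Canton-S (log2 -0.91), and fru, which encodes neuronal transcription factors of courtship, 42.6, 33.2 and 23.4 in elav5 against 108, 80.7 and 90.3 in Canton-S (log2 -1.49). The labels do not state whether larvae were male or female, and the part of sex in these values was not tested; mle and msl-1, protein components of the same dosage compensation complex, were held.

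Held genes were counted by interval rather than by a missed threshold, so a held gene may still have changed by less than 1.5-fold. Among 5741 genes that averaged 10 normalised CPM or more, a limit added after values were seen, 2484 (43.3%) were held and 1092 (19.0%) were called, which left 2188 that neither test placed. The narrowest intervals belonged to hts, the adducin of the membrane skeleton, eIF4G1, the corepressor gro, the RNA-binding protein Rox8 and uex. hts had 325, 343 and 320.3 normalised CPM in elav5 against 349, 344 and 344 in Canton-S (log2 -0.07, SE 0.07), and gro had 318, 334 and 339.6 in elav5 against 347, 335 and 359 in Canton-S. Held genes were frequent in lists that carry neuronal wiring: 17 of 25 axon guidance and adhesion genes, 17 of 32 Dpr and DIP surface protein genes, which pair neurons, and 13 of 20 genes of the neuronal cytoskeleton and motors. Of 20 transcription factors of neuron subtypes 6 were held and none was called, and of 9 Hox genes and cofactors 4 were held and none was called. zfh2, a transcription factor, had 311, 338 and 302 in elav5 against 285, 290.5 and 294 in Canton-S, its ranges lying just apart. hth, a Hox cofactor, had 1687, 1959 and 1756 in elav5 against 1638, 1624 and 1718 in Canton-S, with overlap. The calls within the wiring lists that passed in every fit included Fas2, the adhesion molecule fasciclin 2, which fell, with 411, 474 and 414 in elav5 against 748, 698 and 718 in Canton-S (log2 -0.74, adjusted p = 0.00625), and dpr9, which rose, with 666, 789 and 729 in elav5 against 387, 382 and 368 in Canton-S (log2 0.94, adjusted p = 0.00091). Of the 20 genes of the cytoskeleton and motors 3 fell and 1 rose, and with 1 library left out 2 to 4 fell and 1 rose. The falls included sn, described above (log2 -2.89). The rise was of tau, the microtubule-associated protein, at 252, 295 and 291 in elav5 against 188, 202 and 193 in Canton-S (log2 0.52).

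**Figure D5:**
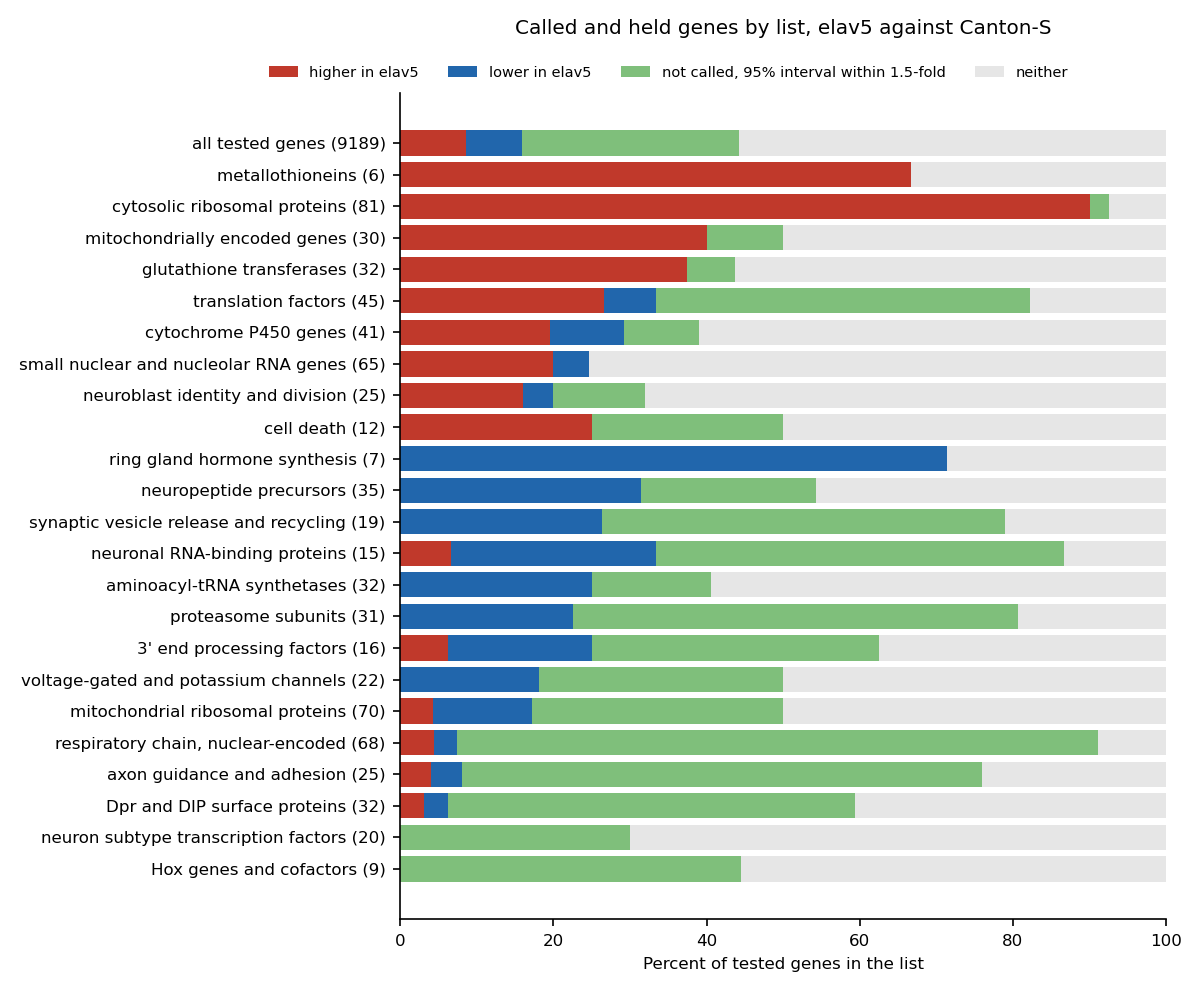
Share of tested genes in each list (number in brackets, in percent) that was higher in elav5, lower in elav5, not called with a 95% interval within 1.5-fold, or neither, beside all 9189 genes. Ribosomal proteins (73 of 81 higher) and the nuclear-encoded respiratory chain (57 of 68 held) stand at opposite ends.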

How the data were processed

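RNA from dissected larval CNS was made into libraries of transcript 3' ends with the Lexogen QuantSeq REV kit from 40 ng of total RNA, per the labels' protocols. The genome build was dm6 per the submitters' processing notes; which aligner, counter, annotation and strand setting the authors used is not stated in the sources at hand. The deposited signal table holds 1 value per gene and library, named CPM by the authors, but its columns do not sum to 1e6: within a library every value is a whole multiple of 1 step (100% of values within 0.1 of a whole read), so the authors' values are read counts divided by 1 factor per library. Reads were recovered from these steps, and the deposited signal was scaled so that the 9 libraries average 1e6 (normalised CPM). No column was left unmapped (0), and 17251 of the 17421 gene names matched the annotation, 170 did not (104 of them among the 9189 genes).

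The fit was limma 3.58.1 (R 4.3.3) with an eBayes trend on log2(normalised CPM + 1), 1 fit over all 9 libraries with genotype alone, contrast elav5 minus Canton-S, 2-sided, Benjamini-Hochberg adjustment over 9189 genes and a threshold of 0.05. A log2 change on this scale understates the change of low genes. For elav, fne and Rbp9 an exact permutation test was run as well. Alternatives were other pseudocounts, filters, scalings, edgeR 4.0.16 and DESeq2 1.42.0 on recovered reads, the muscle level as a covariate, a replicate block and leaving out each library. Tables and figures used Python 3.11.15, numpy 2.4.6, pandas 2.3.3 and matplotlib 3.10.9. On simulated counts for elav5 against Canton-S (9189 genes, 50 changed at each size), the test recovered 0% at 1.5-fold, 26% at 2-fold, 80% at 4-fold and 82% at 8-fold, and called 7 of 8989 unchanged genes. The interval rule for held genes wrongly held 1 of the 50 genes changed by 2-fold and 2 of the 50 changed by 8-fold. It held 0 of those changed by 1.5-fold or 4-fold. The simulation changed far fewer genes than the 1458 called in the data, which makes the adjusted p stricter there. Its rates may therefore not hold for the data, and they do not measure what the test missed.

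The compared genotypes and the 56 gene lists were chosen with earlier results of these data known, and 4 more lists (nucleolar assembly, RNA polymerases, EGF receptor pathway, iron) after values were seen; 26 list entries matched no gene. Named genes were elav, fne and Rbp9, the 15 largest rises and falls among called genes that averaged 10 normalised CPM or more without overlap between genotypes, up to 4 called and 2 uncalled members of each list, all members of lists with at most 8, genes within 100 kb of elav, the 5 held genes with the narrowest interval, the threshold genes and tissue markers. Of these 341 genes 192 overlap another annotated feature, 85 on the same strand. Sequences were not analysed here.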

Additional observations from a re-analysis of the deposited data

How the results depend on the processing

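The 1458 called genes (784 higher, 674 lower) became 923 with the replicate block (503 higher, 420 lower), and 725 to 1372 with 1 library left out (414 to 782 higher, 303 to 590 lower); the counts were lowest without Canton-S replicate 1 (725) and Canton-S replicate 2 (757), fits with fewer samples. DESeq2 called 2129 (1300 higher), edgeR 1398, of which 1325 were shared, and scaling to the library total 1776 (1209 lower). Held genes numbered 2630, 4613 with a pseudocount of 5, 4863 with no filter and 2020 to 2335 with 1 library left out; the larger pseudocount shrinks changes of low genes, and the lack of a filter adds genes near 0. The elav log2 change was -5.90 to -5.47 with 1 library left out. Whether replicate numbers pair libraries was not settled. Same-numbered elav5 and Canton-S libraries correlated at 0.204, 0.002 and 0.141 in their deviations, and differently numbered ones at -0.205 to 0.120. The correlations of replicates 1 and 3 were thus the highest, and that of replicate 2 was not. Among 340 named genes none changed sign in a call under any alternative; 35 calls were lost with the block, and 49 and 52 on leaving out Canton-S replicates 1 and 2. Depth limits genes near 3 reads.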

Other observations

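Genes in this paragraph fall outside the rule for named genes and were chosen after their values were seen; each was called in all 6 fits that left out 1 library. Arc1, a capsid-like protein that carries RNA between neurons and muscle, had 178, 178 and 149 normalised CPM in elav5, 252, 160.3 and 246 in elav5/fne and 14.1, 23.1 and 16.1 in Canton-S (log2 3.20 for elav5 against Canton-S, SE 0.21, limma adjusted p = 5.04e-05). dmGlut, a solute transporter gene, had 10.7, 17.2 and 8.05 in elav5, 24.1, 29.6 and 27.5 in elav5/fne and 58.7, 36.5 and 37 in Canton-S (log2 -1.82). crb, the apical polarity protein crumbs, had 71.1, 39.6 and 50.1 in elav5, 72.8, 87.3 and 87 in elav5/fne and 22.2, 23.3 and 21 in Canton-S (log2 1.2). par-6, the polarity protein that binds aPKC, had 16.7, 15.5 and 14 in elav5 and 26.8, 37.2 and 35.3 in Canton-S (log2 -1.05). lin-28, an RNA-binding protein of developmental timing, had 45.3, 44.5 and 47.1 in elav5 and 25, 20.3 and 25.2 in Canton-S (log2 0.93). Of the splicing factors, SC35 had 28.2, 51.9 and 48.6 in elav5 and 92.7, 82.2 and 90.8 in Canton-S (log2 -1.07), and SF2 101, 109 and 107 in elav5 and 186, 178 and 166 in Canton-S (log2 -0.73).

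The precursor RNA of ribosomes was represented by pre-rRNA:CR45856, with 1527, 1010.1 and 1529.9 normalised CPM in elav5, 1195, 1352 and 1086 in elav5/fne and 511, 742 and 514 in Canton-S (log2 1.2, limma adjusted p = 0.00462); ribosomal RNA genes are repeated, so reads may be shared between copies. Hsc70-2, a heat shock cognate gene, had no read in the elav5 libraries and 1.8, 3.27 and 2.46 normalised CPM in Canton-S. GstE8 had no read in Canton-S and 5.85, 3.59 and 1.9 in elav5.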
